A study of Mus musculus with 4 samples.

Results

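The nuclei described here are the Slc17a6 glutamatergic neurons of a dissection of the mouse lateral septum (LS). Slc17a6 encodes the vesicular glutamate transporter VGLUT2. Members were chosen by raw UMIs of marker genes. A nucleus was a member when it had 200 to 6000 genes, under 2% mitochondrial UMIs (unique molecular identifiers, 1 for each captured RNA molecule), at least 2000 UMIs, and raw counts of at least 3 UMIs of Slc17a6, fewer than 2 of Slc17a7, fewer than 3 of Gad1 and Gad2 together and fewer than 3 of St18. This rule was met by 295 of the 48940 nuclei that passed its quality limits, or 0.603%. The study asked how the LS differs between mice of different immune backgrounds. Each of its 4 libraries was a pool of 3 male mice aged 6 to 8 weeks, untreated, whose LS was dissected and snap-frozen before nuclei were isolated for 10x Genomics sequencing. C57J 1 (sequenced in batch 1) and C57J 2 (batch 2) came from C57BL/6JNifdc mice, nude (batch 2) from BALB/c nude mice, which lack T cells on the BALB/c background through the loss of Foxn1, and BALB/c (batch 2) from BALB/c mice. Where 4 values stand in a row, they follow this order of libraries. Nude and BALB/c had 1 library each, so these groups have no replicate of their own, and a pool hides the spread between animals.

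The LS is built almost wholly of inhibitory neurons that make GABA with the enzymes Gad1 and Gad2. Neurons that fill their synaptic vesicles with glutamate through VGLUT2 lie mainly in neighbouring structures, such as the medial septum, the triangular septal nucleus and the bed nucleus of the anterior commissure, with a minority inside the LS. VGLUT1, encoded by Slc17a7, serves most glutamatergic neurons of the cortex and hippocampus, and St18 marks oligodendrocytes. A dissection of the LS can therefore hold few VGLUT2 neurons, and their number can vary with where its borders were cut.

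C57J 1 held 43 members, C57J 2 held 39, nude held 44 and BALB/c held 169. The median depth of a member was 6805, 7310, 6589 and 9305 UMIs, and the summed counts of members were 335057, 320219, 336023 and 1731843 UMIs. BALB/c thus held most of the members and most of their reads. The whole libraries held 102939576, 72912922, 82169638 and 125998527 UMIs over 17025, 14092, 14697 and 12558 barcodes. Pairs of libraries shared between 29 and 63 barcodes, and no barcode was shared by members of different libraries. For comparison, 24554 nuclei were Gad nuclei by matched limits (at least 3 UMIs of Gad1 and Gad2, fewer than 2 of Slc17a6 and of Slc17a7, fewer than 3 of St18) (7328, 4861, 6259 and 6106 of them by library).

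The counts that chose the members were low. Of the 295 members, 132 had exactly 3 Slc17a6 UMIs, 82 had 4 and 81 had 5 or more, and the highest count in a nucleus was 9. Just outside the threshold, 317 nuclei met every other limit with 2 Slc17a6 UMIs. At least 3 Slc17a6 UMIs were found in 681 nuclei, of which 359 failed the limit on Gad1 and Gad2, 25 that on Slc17a7 and 22 that on St18, some of them more than 1 of these. As CPM, the UMIs of a gene per 1e6 UMIs of all members of a library summed, Slc17a6 (chromosome 7, 51622006 to 51671119 of GRCm38, the assembly also called mm10) stood at 457, 443, 461 and 432 CPM, against 4.08 to 7.36 CPM in Gad nuclei. These levels follow from the rule and are given as a description. Free RNA can give Slc17a6 UMIs to cells that do not express the gene, and the part of free RNA in these counts was not tested. Among oligodendrocyte nuclei (St18 at 10 UMIs or more), 4.72%, 3.83%, 6.90% and 6.18% held a Slc17a6 UMI, at median depths of 3632, 3315, 3156 and 4665 UMIs, while 3 or more were found in 0 of 487, 0 of 313, 0 of 174 and 7 of 1068.

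None of the 3 general neuronal genes Snap25, Syt1 and Rbfox3 was called between members and Gad nuclei, with log2 fold changes of -0.18, -0.21 and -0.28. Snap25, a synaptic vesicle fusion protein, stood at 857, 874, 756 and 870 CPM in the members, against 857 to 978 CPM in Gad nuclei. Slc32a1, the vesicular transporter of GABA, which the rule did not use, stood at 23.9, 6.25, 17.9 and 20.8 CPM, against 50.6 to 73.7 CPM. The label of glutamatergic neurons therefore went with the expression of neuronal genes and with a level of the GABA transporter below that of Gad nuclei. Of the 295 members, 95 had no UMI of Gad1 and Gad2, 122 had 1 and 78 had 2, the most that the rule allows. Gad nuclei were chosen by at least 3 such UMIs, and the part of these limits in the difference of Slc32a1 was not tested. Markers that place neurons in the septum were less uniform. Trpc4, which the study uses as an LS marker, stood at 119, 90.6, 80.4 and 52.0 CPM in the members, against 649 to 737 CPM in Gad nuclei (log2 fold change -3.17, standard error 0.15, edgeR adjusted p = 2.6e-31). Elavl2, its marker of the medial septum, stood at 445, 347, 339 and 554 CPM, against 123 to 223 CPM (1.29, standard error 0.12, adjusted p = 1.3e-14). Rarb, its marker of the striatum, stood at 9.24 to 24.98 CPM, against 67.0 to 227 CPM (-3.08, standard error 0.20). The members of every library lay below the Gad nuclei for Trpc4 and above them for Elavl2.

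The share of members among nuclei was 0.317% in C57J 1 (95% exact Clopper-Pearson interval 0.229 to 0.426) and 0.348% in C57J 2 (0.248 to 0.476). The nude library had 0.359% (0.261 to 0.482) and the BALB/c library 1.42% (1.21 to 1.65). The interval of BALB/c did not overlap those of the other 3 libraries, which overlapped each other. The share in BALB/c was 4.28 times that of both C57J libraries together (95% interval 3.27 to 5.65), and that in nude was 1.08 times (0.735 to 1.58). Within batch 2, that is, against C57J 2 alone, the ratios were 4.07 for BALB/c and 1.03 for nude. With at least 5 UMIs of Slc17a6 required, they were 15.7 (7.80 to 35.8) for BALB/c and 0.899 (0.202 to 3.22) for nude, against both C57J libraries. These intervals cover counting error only, and no test between groups was made, because 2 libraries against 2 cannot go below a permutation p of 0.333 and nude and BALB/c have 1 library each. The nuclei of BALB/c were also deeper, at a median of 9005 UMIs among all that passed, against 5462 to 6362 in the other libraries. When every nucleus was thinned to 2000 UMIs and the same rule applied, 5, 1, 5 and 12 nuclei met it. The share in BALB/c was then 4.16 times that of C57J (1.44 to 13.5), and that in nude 1.685 times (0.407 to 6.63). The thinned share in BALB/c (95% interval 0.0520% to 0.176%) overlapped those in C57J 1 (0.0120% to 0.0859%) and nude (0.0133% to 0.0952%). The share of all nuclei with any Slc17a6 UMI after thinning was 2.89%, 3.57%, 3.55% and 3.68%. Among thinned oligodendrocytes it was 1.85% (9 of 487), 2.56% (8 of 313), 4.60% (8 of 174) and 3.28% (35 of 1068), above that of all nuclei in nude only. Nuclei with at least 3 UMIs of Slc17a6 that also held at least 3 of Gad1 and Gad2 were themselves most frequent in BALB/c. Among nuclei with at least 3 UMIs of Gad1 and Gad2 that met the limits on Slc17a7 and St18, 0.963%, 0.589%, 0.799% and 2.95% held at least 3 of Slc17a6. The extent of the dissection cannot be told apart from the strain in these data.

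**Figure D1:**
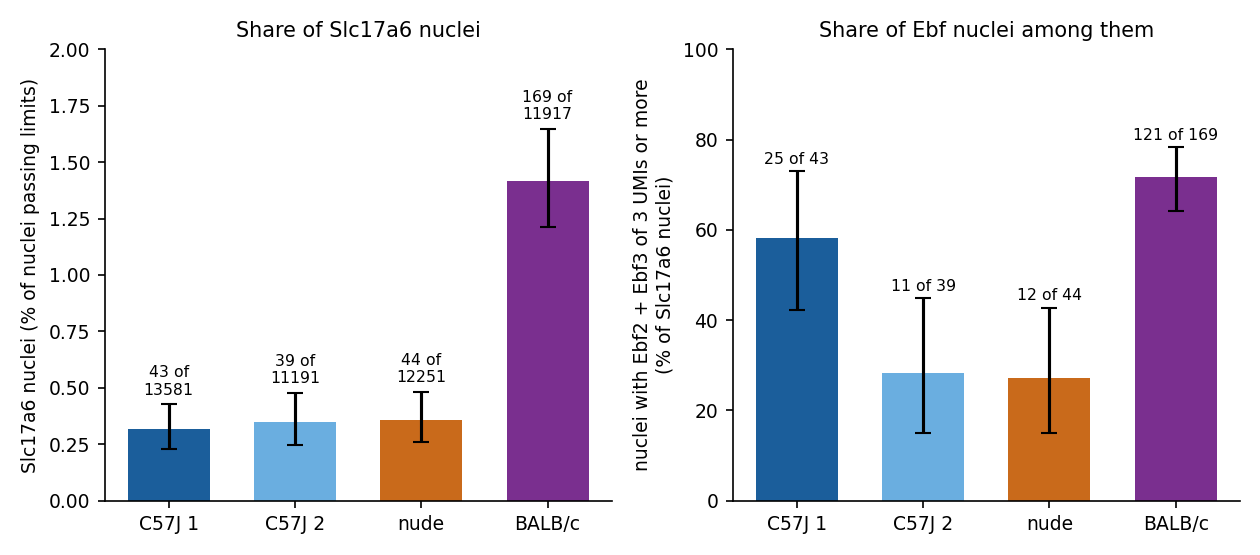
Left, members as a percentage of the nuclei passing the quality limits in each library. Right, members with at least 3 UMIs of Ebf2 and Ebf3 together as a percentage of the members. Bars start at 0, error bars are 95% exact Clopper-Pearson intervals, and the counts stand above them. BALB/c stands apart at left with 1.42%, while at right C57J 1 (58.1%) and BALB/c (71.6%) lie above C57J 2 (28.2%) and nude (27.3%).

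The members fell into separate kinds by Ebf2 and Ebf3, transcription factors of the early B cell factor family that act in the differentiation of many neurons. Together these genes gave 3 UMIs or more in 169 members, 1 or 2 UMIs in 9 and no UMI in 117. This division was made after the values were seen, so its genes are given as a description, with no test. Of the members of C57J 1, 25 had Ebf2 and Ebf3 at 3 UMIs or more (58.1%, 95% interval 42.1 to 73.0), and of those of C57J 2, 11 did (28.2%, 15.0 to 44.9). These were 12 for nude (27.3%, 15.0 to 42.8) and 121 for BALB/c (71.6%, 64.2 to 78.3). The share thus differed within the C57J strain as well, and C57J 2 was near nude while C57J 1 was nearer BALB/c. As a share of all nuclei, members with Ebf2 and Ebf3 made up 0.184%, 0.0983%, 0.0980% and 1.02%. Members without a UMI of either made up 0.125%, 0.241%, 0.237% and 0.369%. The larger number of members in BALB/c was thus mostly of the kind with Ebf2 and Ebf3. That kind in BALB/c made up 6.99 times the share in C57J (95% interval 4.78 to 10.4), and the kind without them 2.08 times (1.34 to 3.23). Within batch 2, against C57J 2 alone, these ratios were 10.3 (5.57 to 21.2) and 1.53 (0.927 to 2.57), which compares 1 library with 1, so that the intervals cover counting error of nuclei and not the spread between pools. Depth differed between the kinds: the median was 5965, 4637, 5403 and 8717 UMIs with Ebf2 and Ebf3 and 8589, 9106, 6818 and 12926 UMIs without. The 8 listed astrocyte markers summed to 1295, 1936, 738 and 470 CPM with Ebf2 and Ebf3 and to 705, 483, 359 and 366 CPM without, with Slc1a2 the most abundant and none of the 8 at 0. The 5 markers of oligodendrocyte precursors, with Vcan the most abundant and none at 0, summed to 29.8, 95.8, 383 and 42.9 CPM with and 50.3, 76.7, 71.8 and 31.2 CPM without. The part of either list in the values of either kind was not tested.

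**Figure D2:**
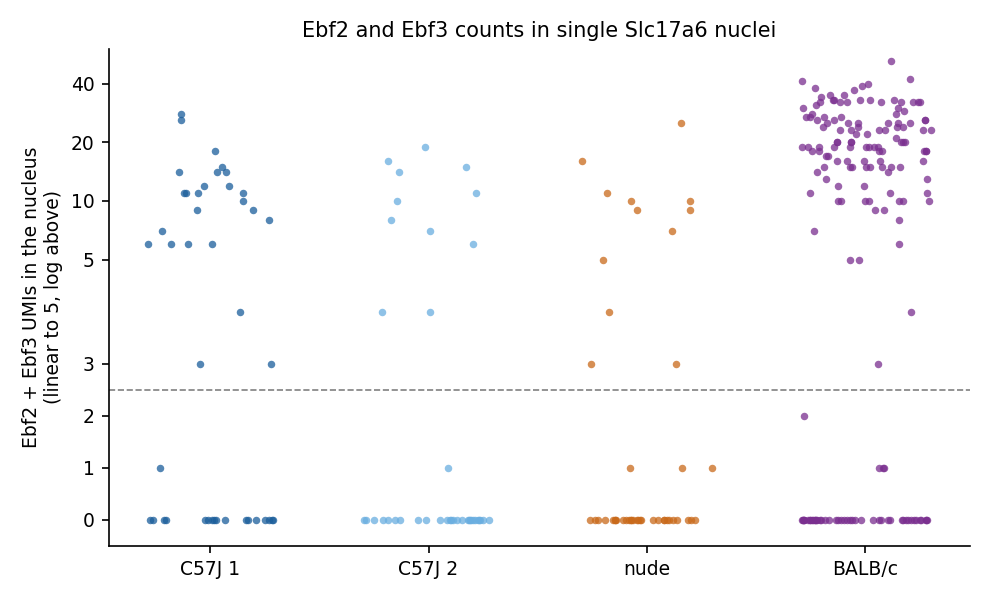
Each point is 1 member, placed by its library and by the UMIs of Ebf2 and Ebf3 together, on an axis that is linear up to 5 UMIs and logarithmic above. The dashed line parts nuclei with 3 UMIs or more from the rest. In each library the points gather at 0 and above the line, with 9 members of all libraries at 1 or 2 UMIs.

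Ebf2 (chromosome 14, 67233292 to 67430918) stood at 1039, 1342, 807 and 1310 CPM in the members with Ebf2 and Ebf3, and Ebf3 (chromosome 7, 137193673 to 137314445) at 597, 843, 725 and 1148 CPM. Ebf1, of the same family, which the division did not use, went with them. Ebf1 stood at 340, 249, 560 and 712 CPM in these nuclei, at 12.6, 3.84, 4.23 and 5.21 CPM in the members without Ebf2 and Ebf3, and at 9.43 to 15.0 CPM in Gad nuclei. The genes listed as markers of the triangular septal nucleus and the bed nucleus of the anterior commissure lay on the same side. Eomes, a T-box transcription factor, stood at 59.7, 57.5, 54.7 and 124 CPM with Ebf2 and Ebf3 and had no UMI without them in any library. Calb2, which encodes the calcium-binding protein calretinin, stood at 215, 249, 109 and 329 CPM against 12.6, 23.0, 21.1 and 20.8 CPM. Tbr1, another T-box factor, stood at 71.6, 19.2, 27.3 and 66.7 CPM against 6.29, 0, 0 and 3.47 CPM, and Lhx9, a LIM homeobox factor, at 41.8, 19.2, 27.3 and 42.9 CPM against 0, 3.84, 0 and 3.47 CPM. Sln, which encodes the calcium pump regulator sarcolipin, stood at 35.8, 19.2, 0 and 93.2 CPM, and had no UMI in the members without Ebf2 and Ebf3. In C57J 2, Tbr1, Lhx9 and Sln rested on 1 UMI each in the nuclei with Ebf2 and Ebf3, so that the kinds cannot be parted by these genes there at this depth. Such nuclei were also few in nude, 12 with 73154 UMIs in all, against 11 with 52175 UMIs in C57J 2. Their Tbr1 and Lhx9 levels thus also rest on few UMIs, and they held no UMI of Sln.

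Other leading genes of the same nuclei were Epha3, Sema3a, Corin and Postn. Epha3, an ephrin receptor, stood at 1886, 2128, 1832 and 2119 CPM with Ebf2 and Ebf3, against 81.8, 72.9, 97.2 and 55.5 CPM without and 138 to 255 CPM in Gad nuclei. Sema3a, a secreted repellent of growing axons, stood at 716, 709, 410 and 897 CPM against 6.29, 15.3, 4.23 and 3.47 CPM. Corin, a transmembrane protease, stood at 346, 364, 560 and 297 CPM against 0, 0, 0 and 3.47 CPM. Postn, which encodes the matrix protein periostin, stood at 328, 402, 260 and 293 CPM against 6.29, 11.5, 0 and 3.47 CPM. Each of these genes separated both kinds in all 4 libraries without overlap, which was also the rule by which the leading genes were picked.

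The members without Ebf2 and Ebf3 had leading genes of their own. Dach1, a transcriptional corepressor, stood at 755, 713, 617 and 569 CPM, against 11.9, 38.3, 27.3 and 9.13 CPM with Ebf2 and Ebf3. Sv2b, a synaptic vesicle protein, stood at 120, 104, 152 and 98.9 CPM, against 0.913 CPM in BALB/c and no UMI in the others. Otx2os1, a transcript divergent from the homeobox gene Otx2, stood at 145, 222, 207 and 208 CPM against 5.97, 0, 41.0 and 1.83 CPM. Gad nuclei lay between both kinds for Dach1 (70.3 to 85.2 CPM), Sv2b (31.7 to 44.6 CPM) and, in 3 of 4 libraries, Otx2os1 (21.3 to 37.5 CPM). Reln, which encodes the extracellular protein reelin, stood at 604, 571, 541 and 500 CPM without Ebf2 and Ebf3 and at 41.8, 19.2, 232 and 23.7 CPM with them. The 24 listed potassium channel genes summed to 5318, 4657, 6780 and 4283 CPM with Ebf2 and Ebf3 and to 16671, 12595, 13706 and 14099 CPM without, while the 16 calcium, sodium and cation channel genes summed to 3376 to 3994 CPM with and 3782 to 4200 CPM without. Kcnip4, an auxiliary subunit of A-type potassium channels, stood at 5425, 2884, 2856 and 4953 CPM without and at 842, 728, 629 and 175 CPM with Ebf2 and Ebf3, and Kcnd2, which forms the pore of these channels, at 4544, 4065, 4229 and 3314 CPM against 633, 556, 1955 and 228 CPM. Kcnab1, another auxiliary subunit, went the other way, at 62.9, 65.2, 165 and 135 CPM without and 442, 882, 683 and 769 CPM with them.

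**Figure D3:**
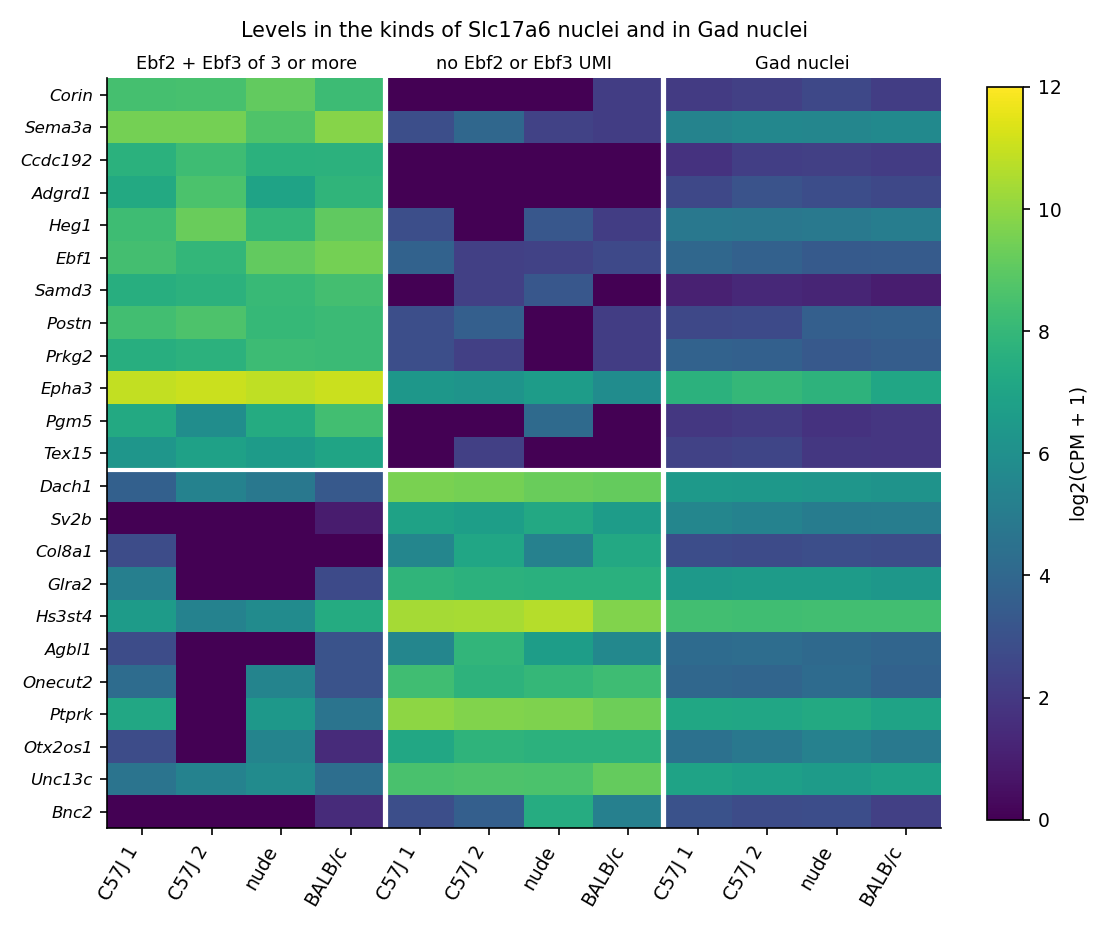
Heat map of log2(CPM + 1) for genes with the largest excess in members with Ebf2 and Ebf3 (upper rows) and in members without them (lower rows), with the UMIs of each library summed. Columns are the 4 libraries for each kind of member and for Gad nuclei. The contrast between both kinds recurs in each library, and Gad nuclei take levels between them for most of the lower rows.

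Leiden clustering, which groups nuclei by likeness over variable genes, gave 8 subclusters, which are left unnamed and described by their leading genes. Their borders depend on the setting: a resolution of 0.5 gave 5 subclusters and removing predicted doublets gave 6, with adjusted Rand indices (1 for identical groupings) of 0.486 and 0.493 to these 8. Subclusters 1 (79 nuclei), 2 (47) and 5 (28) held nuclei with Ebf2 and Ebf3, with the exception of 1 nucleus. Subcluster 1 led with Ebf1 (893 CPM against 149 CPM in the other members), Ndnf, Spon1, Mctp2 and Epha3, subcluster 2 with Npnt (117 against 6.77 CPM), Igdcc3, Ptpn14, Mboat1 and Col9a1, and subcluster 5 with Ror1 (298 against 28.9 CPM), Prss12, Pde1a, Kcnmb2 and Hrh1. Sln stood highest in subcluster 2 at 134 CPM, followed by 78.7 CPM in subcluster 1, 32.8 CPM in subcluster 8 and 15.4 CPM in subcluster 5. Subclusters 3 (42 nuclei), 6 (28) and 7 (22) held 86 nuclei without a UMI of Ebf2 or Ebf3, 5 with 1 or 2 and 1 with 3 or more. Subcluster 3 led with Fgf13 (1001 against 79.0 CPM), Prox1, Mei4 and Cpne4, subcluster 6 with Alk (1293 against 80.3 CPM), 9330185C12Rik, Unc13c and Col8a1, and subcluster 7 with Bnc2 (346 against 1.21 CPM), Syt6, Nwd2, Dab2 and Gm43948. Subcluster 4 (35 nuclei) was mixed and led with Fbxl7, Zbbx, Gas7, Reln (948 against 213 CPM) and Tox.

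The subclusters differed in the septal markers as well. Elavl2 stood at 123 CPM in subcluster 3, within the range of Gad nuclei, and at 377 to 707 CPM in the other 7. Trpc4 was highest in subclusters 3 (162 CPM) and 4 (139 CPM), both far below Gad nuclei. Gad2, which the rule limits, had a UMI in 86.4% of the nuclei of subcluster 7, 71.4% of subcluster 3 and 65.7% of subcluster 4. In the rest it was found in 38.0% to 53.6%. Subcluster 8 (14 nuclei) led with Sox6, Gm3764, Slc4a4, Mertk and Slc1a3 (996 against 61.9 CPM), of which Slc4a4, Mertk and Slc1a3 are genes of astrocytes, and 10 of its nuclei were predicted doublets, that is, barcodes that may hold 2 nuclei. In all, 30 of the 295 members were predicted doublets, namely 7, 11, 4 and 8 by library. Subclusters 3, 4, 6 and 7 held 8, 7, 3 and 2 of them, and subclusters 1, 2 and 5 held 0. Subcluster 1 held 37.9% of the members of BALB/c (30.5 to 45.6), against 14.0% in C57J 1 (5.30 to 27.9), 12.8% for C57J 2 (4.30 to 27.4) and 9.09% for nude (2.53 to 21.7). Subcluster 3 held 5.92% of the members of BALB/c (2.87 to 10.6), against 16.3% in C57J 1 (6.81 to 30.7), 30.8% for C57J 2 (17.0 to 47.6) and 29.5% for nude (16.8 to 45.2). The intervals of BALB/c were apart from those of C57J 2 and nude for subcluster 3 and from all 3 for subcluster 1, where intervals cover counting error only.

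To ask what sets the members apart from the GABAergic neurons of the dissection, they were compared with the Gad nuclei of the same libraries. Gad nuclei were chosen without a marker of the LS. They also held the study's markers of the striatum, Rarb, and of the medial septum, Elavl2, as given above. Of 16576 genes tested, leaving out the genes of the rule, 1970 were called at an edgeR adjusted p below 0.05 and a log2 fold change above 0.5 in size, a share of 11.9%. Of these, 771 were higher in the members (4.65% of the genes tested) and 1199 lower (7.23%). The largest rises among named genes with the same direction in 4 of 4 libraries were in Samd3, Ebf3, Ebf2, Lhx1os, Lhx9, Eomes, Corin, Fzd7, Pgm5 and Ctxn3, with log2 fold changes from 6.38 to 4.82. Without BALB/c these lay between 5.74 and 3.88, and each gene kept its call. Ebf2 stood at 519, 219, 179 and 829 CPM in the members, against 4.02, 7.24, 7.89 and 3.36 CPM in Gad nuclei (log2 fold change 6.19, standard error 0.25, adjusted p = 3.5e-35). Samd3 stood at 92.5, 37.5, 65.5 and 215 CPM against 1.17, 1.58, 1.33 and 0.941 CPM (6.38, standard error 0.28, adjusted p = 1.7e-32). Lhx1os, a long noncoding RNA, stood at 23.9, 12.5, 26.8 and 31.2 CPM against 0.276 to 0.421 CPM. When only the members without a UMI of Ebf2 or Ebf3 were compared with Gad nuclei, Samd3, Fzd7 and Pgm5 lost their call and Corin and Ctxn3 took log2 fold changes of -1.37 and -0.12 without a call.

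The largest falls were in Crhr2, Slc26a4, Tec, Gad1os, Col6a3, Dock5, Cftr, Ntf3, Hmcn1 and Sfta3-ps. Crhr2, a receptor of the corticotropin-releasing factor family that marks a group of LS neurons in the study, had no UMI in any member, against 9.43, 11.3, 13.3 and 11.2 CPM in Gad nuclei. With 3 counts over all members taken as the limit that a count of 0 allows (1.10 CPM), it was at least 10.3-fold lower (adjusted p = 4.0e-08). Col6a3, a collagen chain that marks another group of LS neurons there, stood at 0, 0, 5.95 and 2.31 CPM against 36.1, 37.9, 44.8 and 37.1 CPM (log2 fold change -4.15, standard error 0.38, adjusted p = 2.1e-15). Ntf3, which encodes the growth factor neurotrophin 3, stood at 0, 3.12, 0 and 1.15 CPM against 15.0 to 23.1 CPM. Gad1os overlaps Gad1, a gene of the rule, on the other strand, and its fall is not independent of the rule.

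**Figure D4:**
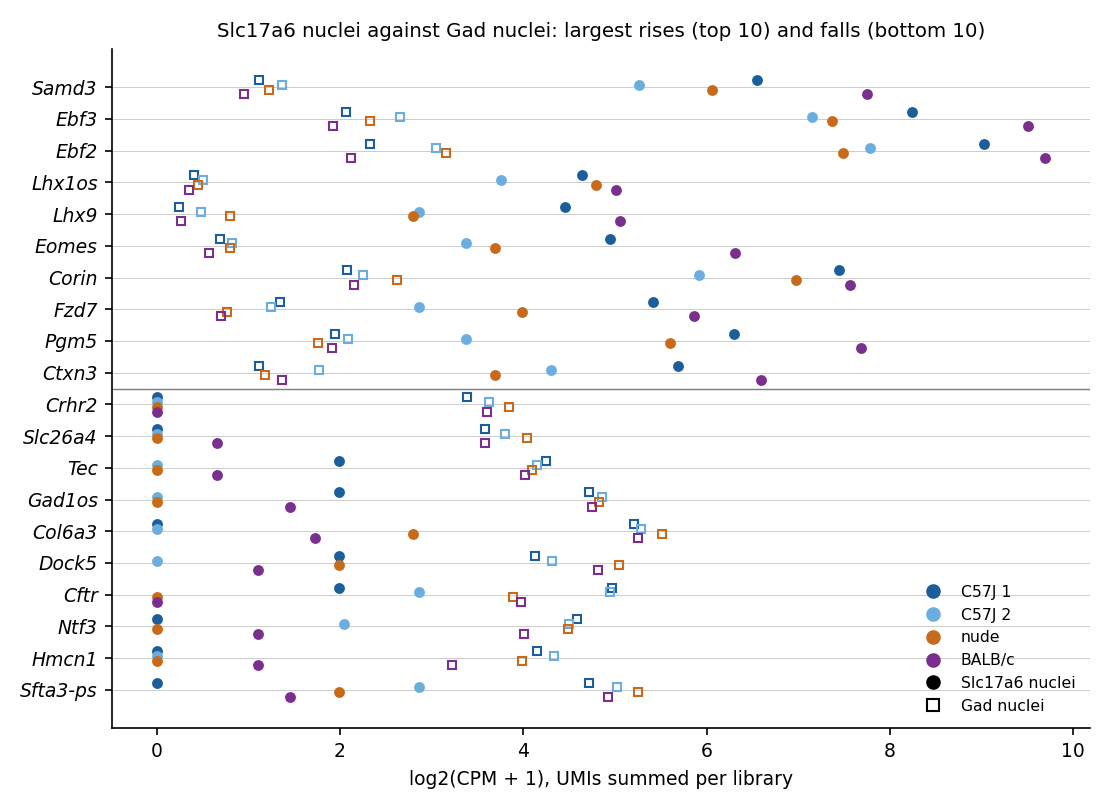
Levels as log2(CPM + 1) of the 10 genes that rose most and the 10 that fell most in the members (filled circles) against Gad nuclei (open squares), coloured by library, with the UMIs of each library and class summed. Circles and squares do not overlap for any of the 20 genes, and C57J 2 and nude lie lowest among the circles for most of the upper genes.

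By groups of genes, of 17 listed septal patterning factors, 3 were higher and 8 lower in the members, with a median log2 fold change of -0.90 against -0.05 over all genes tested. Meis2, a homeobox factor of inhibitory neurons of the subpallium, stood at 101, 172, 101 and 57.2 CPM against 879 to 1005 CPM (log2 fold change -3.30, standard error 0.15). Zic4, of the Zic family that patterns the septum, fell by 0.90 on the log2 scale, at 71.6, 65.6, 65.5 and 34.6 CPM against 74.9 to 110 CPM. Zic1 stood at 104 to 131 CPM against 135 to 160 CPM, a log2 fold change of -0.43 that is under the limit on size. The factors of the GABAergic lineage Dlx5 and Dlx6, those of cholinergic and other ventral neurons Lhx8, Nkx2-1 and Gbx1, and Sox6 were the other 6 that fell, and Otx2 (log2 fold change 1.22), Isl1 (0.61) and Bsx (4.00) rose.

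Of the 8 tested genes listed for Cajal-Retzius cells, 6 were higher and 1 lower, with a median log2 fold change of 3.75. Ebf2, Ebf3, Calb2, Lhx1, Lhx5 and Reln rose, and Cacna2d2, a calcium channel subunit, fell. The genes that rose did not all lie in the same members. Calb2 stood higher in the members with Ebf2 and Ebf3, and Reln in those without, as given above. Trp73, a transcription factor that defines Cajal-Retzius cells, had no UMI in the C57J libraries. It stood at 5.95 CPM for nude and 14.4 CPM for BALB/c, in 8 nuclei, so the members as a whole are not given that name. All 5 genes listed for the triangular septal nucleus and the bed nucleus of the anterior commissure were higher (median 4.31), among them Calb2 at 116, 59.3, 38.7 and 215 CPM against 7.60 to 9.32 CPM (log2 fold change 3.61, standard error 0.21, adjusted p = 5.6e-25). Of 9 tested genes listed for the thalamus, 5 were higher and 1 lower (median 0.97). Ntng1, a membrane protein that guides axons, stood at 1803, 2514, 1934 and 2071 CPM against 237 to 292 CPM (2.88, standard error 0.12, adjusted p = 1.7e-34), and the thalamic factors Gbx2 and Lef1 had no UMI in any member. The 15 genes listed for the hypothalamus and preoptic area summed to 5.97, 18.7, 2.98 and 13.9 CPM, against 4.73 to 6.15 CPM in Gad nuclei. Of the 15, 9 had no UMI in the members, among them Sim1 and Otp, and of 2 tested 0 were higher and 1 lower. Barhl2 had a UMI in 11 nuclei of subcluster 1, 6 of subcluster 2, 1 of subcluster 5 and 2 of subcluster 8. Fezf1 had a UMI in 6 nuclei of subcluster 6 and 2 of subcluster 3. Of the 6 genes listed for the habenula, 3, namely Pou4f1, Gpr151 and Htr5b, had no UMI. The habenular list summed to 53.7, 68.7, 77.4 and 48.5 CPM, nearly all of it Nwd2, and to 54.3 to 62.4 CPM in Gad nuclei, and none of its 3 tested genes was called. Nwd2 stood at 436 CPM in subcluster 7, where 77.3% of the nuclei had a UMI of it. Of 5 tested genes listed for glutamatergic neurons of the cortex and hippocampus, 3 were higher (Tbr1, Cux2 and Sv2b) and 0 lower, and Emx1 had no UMI.

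Among transmitter genes outside the rule, Slc32a1 (log2 fold change -1.86) and the GABA-degrading enzyme Abat (-0.73) were lower. Of the 7 other genes listed for the transport and synthesis of glutamate, the amino acid transporter Slc38a2 rose (0.69) and the glutamate transporter Slc1a1 fell (-0.57). Chat, the enzyme of acetylcholine synthesis, had UMIs in the members of BALB/c only (1.73 CPM), against 4.26 to 7.99 CPM in Gad nuclei. The members of each other library held 320219 to 336023 UMIs, where a level of 1.73 CPM can leave no UMI. With Slc5a7 and Slc18a2, Chat was 1 of the 3 lower genes of 5 tested for acetylcholine and monoamines. Of 21 tested precursors of neuropeptides and other secreted signals, 3 were higher and 5 lower (median -0.78). Bdnf, the brain-derived neurotrophic factor, stood at 26.9, 31.2, 11.9 and 57.2 CPM against 3.30 to 4.13 CPM (log2 fold change 3.22, standard error 0.33, adjusted p = 3.2e-13), and Adcyap1 and Cbln1 rose from levels near 1 CPM or lower. The peptide genes that fell were Nts, Sst, Penk, Tac1 and Cartpt, for example Nts, which encodes neurotensin, at 8.93 to 12.7 CPM against 25.6 to 33.8 CPM.

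Of 17 ionotropic glutamate receptor subunits, 2 were higher and 4 lower (median -0.21). Gria1, a subunit of AMPA receptors, stood at 1015, 952, 911 and 1155 CPM against 2194 to 2597 CPM (log2 fold change -1.32, standard error 0.11), and Grin2a, Grin2b and Grik3 also fell. The kainate receptor subunits Grik2 (0.81) and Grik4 (0.65) rose. Of 7 metabotropic glutamate receptors, 2 were higher and 3 lower (median -0.18). Grm5 stood at 1283, 1505, 1765 and 901 CPM against 4067 to 4686 CPM (-1.81, standard error 0.12, adjusted p = 6.5e-23), Grm8 at 2131, 1499, 1199 and 2740 CPM against 855 to 1041 CPM (0.90, standard error 0.13), and Grm2 rose (3.90) while Grm3 and Grm4 fell. Of 14 subunits of the GABA-A receptor, 2 were lower and 0 higher (median -0.11). These were Gabra4 (-0.99) and Gabrd, which had no UMI in any member against 3.52 to 7.17 CPM.

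Of 23 tested voltage-gated potassium channel genes, 6 were higher and 4 lower (median -0.12), and of 16 calcium, sodium and cation channel genes 2 were higher and 2 lower (median 0.03). Kcna2, a channel of the axon, stood at 65.7, 71.8, 74.4 and 136 CPM against 25.8 to 36.2 CPM (1.54, standard error 0.16), and Kcnc1, a fast channel of the Kv3 family, at 122 to 140 CPM against 69.1 to 82.9 CPM (0.80, standard error 0.13). Cacna1i, a low-threshold T-type calcium channel, stood at 89.5, 74.9, 107 and 133 CPM against 15.5 to 20.8 CPM (2.51, standard error 0.17, adjusted p = 2.2e-22). Cacna1e, an R-type channel, stood at 328, 315, 312 and 212 CPM against 1091 to 1168 CPM (-2.04, standard error 0.13). Of 15 immediate early genes, whose transcription follows neuronal activity, 9 were lower and 0 higher (median -1.19), where 7.23% of all genes tested were lower. Homer1 stood at 131, 125, 110 and 106 CPM against 224 to 309 CPM (-1.19, standard error 0.13), and Egr4 at 0, 0, 2.98 and 4.62 CPM against 11.6 to 21.2 CPM (-2.54, standard error 0.43). Fos, Fosl2, Junb, Egr1, Egr3, Arc and Npas4 were the others that fell, all from levels under 60 CPM.

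Of 13 genes that the study names for neurons, 4 were higher and 4 lower. Sema3a (2.46), Otx2os1 (1.94) and Tafa2 (0.61) were among those that rose, and Crhr2, Met (-2.55), Ddr2 (-2.11) and Synpo (-1.46) fell. The study chose these 13 genes on the same samples. The rise of Sema3a lay in the members with Ebf2 and Ebf3. Without them it stood at 6.29, 15.3, 4.23 and 3.47 CPM, against 40.7 to 51.2 CPM in Gad nuclei. The rise of Otx2os1 lay in the members without Ebf2 and Ebf3. With them it stood at 5.97, 0, 41.0 and 1.83 CPM, against 21.3 to 37.5 CPM in Gad nuclei. Markers of other cells did not separate the members from Gad nuclei. None of the 8 tested oligodendrocyte, 5 oligodendrocyte precursor, 8 astrocyte, 8 microglia and 3 vascular genes was called in either direction. Without BALB/c, which holds most members, 1298 genes were called in place of 1970. A planned comparison with nuclei of the Slc17a7 type could not be fitted, since only 0, 1, 1 and 19 such nuclei were found.

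Between strain backgrounds, 1 of 5562 genes tested in the members passed the same threshold when the 2 C57J libraries were compared with nude and BALB/c, a share of 0.018%, and 178 had an unadjusted p below 0.05. The gene was 1500004A13Rik (chromosome 3, 88782943 to 88832547, a processed transcript). It stood at 119 and 147 CPM for C57J, against 14.9 CPM for nude and 9.82 CPM for BALB/c, so the groups did not overlap (log2 fold change -3.58, standard error 0.35, adjusted p = 0.039 by edgeR and 3.1e-05 by DESeq2). In Gad nuclei it stood at 114, 136, 16.6 and 13.5 CPM. The C57J levels were higher in both kinds of member, at 131 and 211 CPM against 0 and 3.65 CPM with Ebf2 and Ebf3 and at 81.8 and 138 CPM against 12.7 and 20.8 CPM without. The call was kept with each library left out in turn, C57J 1 and thereby batch 1 included, though each such fit has 1 library on one side, which is assumed to vary like the other pair. It was lost after predicted doublets were removed (log2 fold change -3.70, adjusted p = 0.10).

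The 12 named genes with the smallest p among those whose libraries did not overlap were not called by edgeR with its filter on low counts or by DESeq2. Fggy, a carbohydrate kinase, stood at 74.6 and 93.7 CPM for C57J against 20.8 and 9.82 CPM (log2 fold change -2.74, standard error 0.44, adjusted p = 0.66). Gad nuclei had similar values of 63.1, 63.5, 12.7 and 11.1 CPM. Fbn2, which encodes the matrix protein fibrillin 2, stood at 47.8 and 34.4 CPM against 107 and 182 CPM (1.87, standard error 0.36, adjusted p = 0.94), and in Gad nuclei at 37.2 and 36.2 CPM against 109 and 91.4 CPM. The other 10 were Plpp3, Zfpm2, Pign, Fam81a, Pdlim5, Slit3, Nwd1, Nsun7, Map2k5 and Slc1a3, with log2 fold changes from -2.40 to 1.00. No gene of the lists passed. Without nude, Fggy, Fbn2, Plpp3, Zfpm2, Pign and Nsun7 passed the threshold, where BALB/c stood alone and the spread came from the C57J pair. With no filter on low counts, edgeR called Fggy, Fbn2, Zfpm2 and Fam81a (adjusted p from 1.8e-05 to 0.032).

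The makeup of the members differed between libraries, also within each background. Members with Ebf2 and Ebf3 made up 58.1% and 28.2% of the members of the C57J libraries, 27.3% in nude and 71.6% in BALB/c. Without nude, 122 genes passed the threshold, and without BALB/c 7 did. The 8 astrocyte markers summed to 988, 718, 482 and 478 CPM in all members, with Slc1a2 the most abundant, and to 898, 537, 571 and 646 CPM in Gad nuclei. None of the 8 was at 0 over all members. Slc1a3, an astrocyte glutamate transporter among the 12 genes, stood at 179 and 194 CPM against 113 and 87.2 CPM. The part of this makeup in the strain values was not tested. Within members without a UMI of Ebf2 or Ebf3, and likewise within those with 3 UMIs or more, 0 genes passed with edgeR, with 221 of 4433 and 98 of 2335 at an unadjusted p below 0.05.

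Whether a strain difference was larger or smaller in the members than in Gad nuclei was tested as the interaction of class and background. Of 17734 genes tested, 13 were called, a share of 0.0733%, with 5 higher (0.0282%) and 8 lower (0.0451%) in the members relative to Gad nuclei. DESeq2 called 0, with 165 at an unadjusted p below 0.05. Among the 5, Ebf1 stood at 176, 43.7, 125 and 452 CPM in the members, and at 9.43 to 15.0 CPM in Gad nuclei (difference of log2 fold changes 1.93, standard error 0.28, adjusted p = 1.2e-07). The C57J 1 level lay above that of nude, so the levels of the groups overlapped in the members. Its difference was 0.77 without BALB/c and -0.10 in the members without a UMI of Ebf2 or Ebf3, neither of them called. Ebf3 (1.23), Pgm5 (1.84) and Slit1 (1.17), a guidance molecule of axons, followed the same libraries and lost their call without BALB/c and without C57J 2, as Ebf1 did. Ebf3 changed sign without BALB/c, to -0.40.

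Bnc2, a zinc finger protein that led subcluster 7, stood at 8.95, 9.37, 119 and 21.9 CPM, against 3.79 to 7.08 CPM in Gad nuclei (2.93, standard error 0.68, adjusted p = 0.025). Only the nude library was far from the rest. The call was lost without C57J 1, without C57J 2 and without nude. Stac, an adaptor of calcium channels, stood at 113 and 131 CPM for C57J against 74.4 and 41.6 CPM, while Gad nuclei had 89.9, 93.4, 116 and 133 CPM (-1.68, standard error 0.30, adjusted p = 1.5e-04). Cables1, which links cyclin-dependent kinases to their substrates, stood at 80.6 and 59.3 CPM against 17.9 and 31.8 CPM, with 45.0, 38.7, 59.2 and 64.6 CPM in Gad nuclei (-1.87, standard error 0.36, adjusted p = 0.0011). For both genes the members of the C57J libraries lay above those of nude and BALB/c, and Gad nuclei had the opposite order. Stac lost its call without C57J 2 (-1.55) and without BALB/c (-1.07), and Cables1 without C57J 1 (-1.79) and without C57J 2 (-1.95). Within the members with 3 UMIs or more of Ebf2 and Ebf3, Stac stood at -4.33 and was called. Within those without a UMI of either it stood at -0.90 with no call. Tcf7l2 (-2.21), Fam81a (-2.17), Zfpm2 (-1.18), Il1rapl2 (-1.16), A330008L17Rik (-1.18) and Gm10754 (-1.95) were the others that were lower. Among the fits that left out 1 library, Tcf7l2, Fam81a and Il1rapl2 kept their call only without nude, Zfpm2 and A330008L17Rik only without nude or C57J 1, and Gm10754 only without nude or C57J 2. With predicted doublets removed, 5 of the 13 genes kept their call, namely Ebf1, Ebf3, Pgm5, Stac and Zfpm2. Tcf7l2 then stood at -0.90 (adjusted p = 1), and 24 of its UMIs in the members lay in the 14 nuclei of subcluster 8. In all, 26 genes were called without C57J 1, 3 without C57J 2, 101 without nude and 7 without BALB/c.

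**Figure D5:**
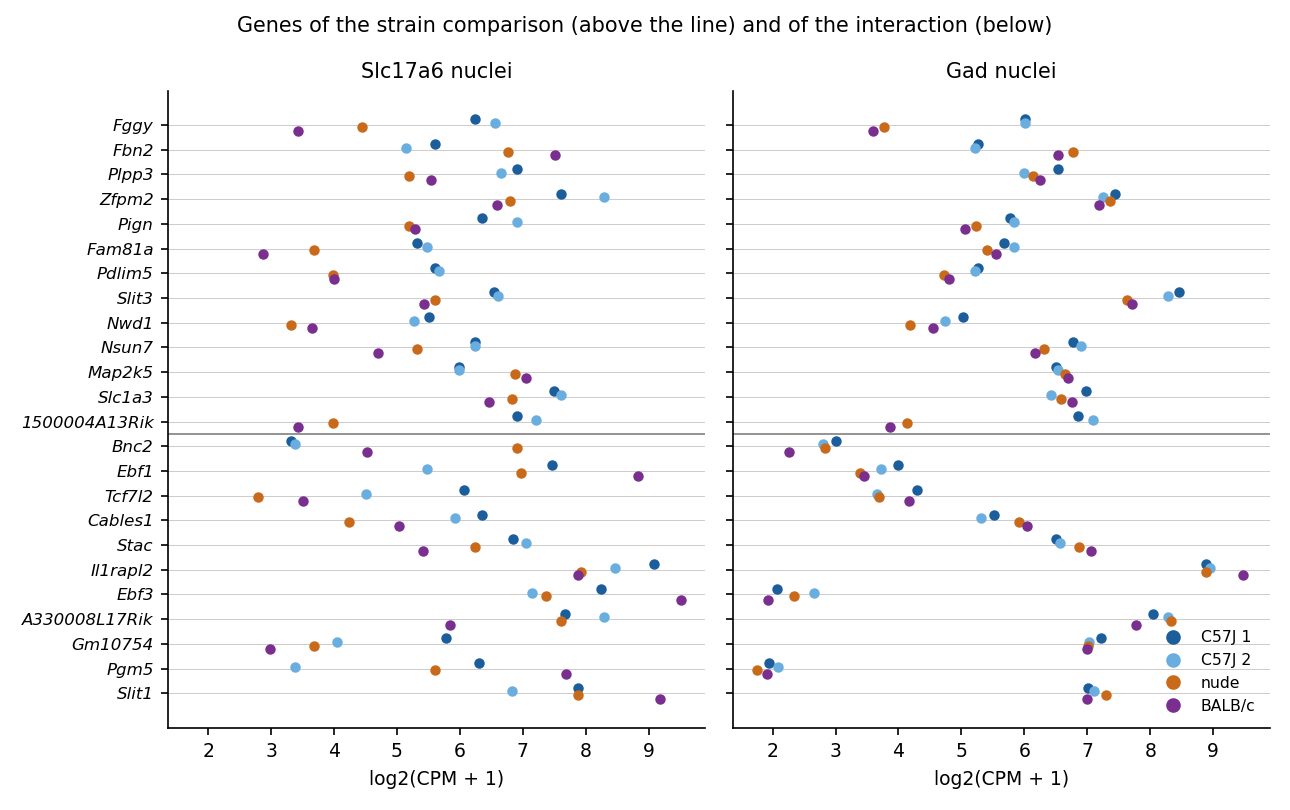
Levels as log2(CPM + 1) in each library of the strain comparison's named genes and of the genes called in the interaction, in members (left) and Gad nuclei (right). Fam81a and Zfpm2 belong to both sets and are drawn above the line. Fggy and 1500004A13Rik part the C57J libraries from nude and BALB/c in both classes, while Ebf1, Ebf3 and Pgm5 spread widely between libraries at left only.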

How the data were processed

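The authors aligned the reads of 4 single-nucleus libraries to mm10 with Cell Ranger 7.0.1 and deposited raw UMI counts per gene and nucleus, not normalized. Whether reads in introns were counted is not given in the sources used here. Where the study tested single nuclei, the library was the unit here. The rule's quality limits were applied to these counts. Its members and all gene lists were chosen with earlier results of these data known. UMIs were summed per library and class and tested with edgeR 4.0.16 in R 4.3.3 (filterByExpr, TMM, quasi-likelihood test, Benjamini-Hochberg adjustment), with the library as block between classes. The procedure was tested on simulated data, of which no result is given here. Each library is a pool of 3 mice, so p-values measure the spread between pools. In the strain and interaction tests, nude and BALB/c served as replicates of the same background. The spread on that side therefore includes differences between nude and BALB/c mice. The spread between the C57J libraries includes differences between batches. Doublets were predicted from 2 simulated doublets per nucleus at 0.8% per 1000 nuclei and kept, with their removal as an alternative. DESeq2 1.42.0, no filter on low counts, thinning to 2000 UMIs, at least 5 Slc17a6 UMIs and leaving out each library were the other alternatives. Subclusters came from Leiden clustering (leidenalg 0.10.2, resolution 1) on 20 principal components of 2000 variable genes. Each nucleus was joined to its 3 nearest in every library. Left out were 50 genes, of which 26 differed between backgrounds by over 1 on the log2 scale in Gad nuclei, and the rest were mitochondrial, sex-linked or genes of the rule. Coordinates and gene types are from GENCODE for GRCm38. Named genes were the 10 largest rises and falls among called genes with at least 10 CPM in a group, no overlap between groups (for classes, the same direction in all 4 libraries, and for the interaction, no overlap of the ratio of CPM + 1 in members to that in Gad nuclei) and a symbol that is not a predicted-gene, Rik or clone name, or else the 12 with the smallest p. The genes leading the division by Ebf2 and Ebf3, and 1500004A13Rik, Ebf3, A330008L17Rik, Gm10754, Pgm5 and Slit1 among the strain results, fall outside that rule and were chosen after their values were seen. The comparison of C57J 1, the only library of batch 1, cannot part batch from animals. The C57J replicates carry no pairing with nude or BALB/c. The published dataset, spatial data and behaviour were not analysed here. Some genes that met these rules are not reported here.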

Additional observations from a re-analysis of the deposited data

Results flagged for a closer look

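The strain difference differed between the members and Gad nuclei for 13 genes by the interaction test of edgeR, as differences of log2 fold changes, nude and BALB/c against C57J. They were 2.93 for Bnc2, 1.93 for Ebf1, 1.84 for Pgm5, 1.23 for Ebf3 and 1.17 for Slit1, higher in the members, and -2.21 for Tcf7l2, -2.17 for Fam81a, -1.95 for Gm10754, -1.87 for Cables1, -1.68 for Stac, -1.18 for A330008L17Rik, -1.18 for Zfpm2 and -1.16 for Il1rapl2, lower. None was called by DESeq2. The share of members with Ebf2 and Ebf3, which was 58.1% and 28.2% in the C57J libraries, 27.3% in nude and 71.6% in BALB/c, moved between these libraries as well, and its part in these values was not tested.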

How the results depend on the processing

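Between classes, 1668 genes were called with no replicate block and 1970 with the library as block. No pairing of C57J with nude or BALB/c replicates exists in the labels. Between classes, 1023 genes were called after thinning to 2000 UMIs and 1024 with members of at least 5 Slc17a6 UMIs, and between 1298 (without BALB/c) and 1908 (without C57J 2) when a library was left out; other alternatives stayed within 1.5 times. Among members alone, the 1 strain call became 23 with no filter on low counts and 0 after removing doublets, thinning, at least 5 UMIs, or within either kind of member by Ebf2 and Ebf3, a division added after seeing the data; leaving out a library gave 1 to 122. The 13 interaction calls became 0 with DESeq2, 8 without doublets, 0 after thinning, 1 with at least 5 UMIs, 6 in members without Ebf2 and Ebf3, 2 in those with them, and 3 to 101 when a library was left out. The cause was not tested. The log2 ratio of the share in nude to C57J moved from 0.12 to 0.75 after thinning, and that in BALB/c from 2.10 to 3.97 with at least 5 UMIs; leaving out a C57J library gave 0.04 to 0.18 and 2.02 to 2.16. The 8 subclusters became 5 at resolution 0.5. In members without Ebf2 and Ebf3, the class differences of Ebf3 (-9.71), Ebf2 (-10.21), Corin (-1.37) and Ctxn3 (-0.12) and the interaction of Ebf1 (-0.10) changed sign, Ebf2 and Ebf3 by construction of that division. With at least 5 UMIs the interactions of Zfpm2 (1.09) and A330008L17Rik (0.77) changed sign, as did Ebf3 without BALB/c, where leaving out a library gave -0.40 to 2.33. Whether depth limits the strain comparison was not tested. The members of C57J 1, C57J 2 and nude held 320219 to 336023 UMIs each.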

Other observations

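Trp73, which marks Cajal-Retzius cells, had UMIs in 7 of the 35 nuclei of subcluster 4 and in 1 of the 14 of subcluster 8, and in no nucleus of the other subclusters. Reln stood at 948 CPM in subcluster 4 and at 874 CPM in subcluster 3, against 5.57 to 288 CPM in the other 6. Vcan, a marker of oligodendrocyte precursors, stood at 223 CPM and Pdgfra at 91.8 CPM in subcluster 8, beside Slc1a2 at 2065 CPM, a gene of astrocytes. The 19 nuclei of BALB/c with at least 3 UMIs of Slc17a7 and under 2 of Slc17a6 had a median of 16870 UMIs, against 9305 UMIs in the members, and 14 of them were predicted doublets.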
